A study of Mus musculus with 6 samples.

Results

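Marginal zone B cells of the mouse spleen were selected from single-cell RNA libraries by the transcripts detected in each cell, and 1668 cells were found among 31457 cells of 6 libraries. A cell had to hold at least 2 molecules of Cd79a, which encodes a signalling chain of the B cell receptor, and no molecule of the T cell genes Cd3e and Cd3d, of the myeloid gene Csf1r, of Fcer2a (CD23) or of Bhlhe41, a B-1 cell transcription factor. It also had to hold at least 1 molecule of Cr2 (CD21), and molecules of at least 2 genes among Cd1d1, Dtx1, S1pr3, Cd9 and Mzb1. The selected cells are called gated cells here, and these 12 genes are described but not named as called genes in them. The libraries came from splenocytes of wild-type C57BL/6 mice that were 6 weeks old when they began 7 weeks on either ND or MCDHFD, with 3 libraries per diet, in a study of metabolic dysfunction-associated steatohepatitis (MASH). The labels do not expand either diet name, give no sex, and do not say whether each library was 1 animal, so p-values measure the spread between libraries. The droplet method counts unique molecules (UMIs) near the 3′ end of transcripts. The ND libraries gave 340, 163 and 262 gated cells (replicates 1 to 3) and the MCDHFD libraries 389, 392 and 122.

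Marginal zone B cells sit at the edge of the splenic follicles, where blood flows past them. They form under Notch2 signals, are held in place by sphingosine 1-phosphate receptors and integrins, and are known for fast IgM responses to blood-borne antigens through Toll-like and B cell receptors. Follicular B cells carry CD23 and more IgD, and recirculate. B cells with at least 1 Fcer2a molecule (9071 cells, otherwise without T cell, myeloid or Bhlhe41 transcripts) served as the comparison.

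Libraries fell into 2 kinds that cut across the diets. ND replicate 2 and MCDHFD replicate 3 were deposited with filtered barcode lists (3409 and 3807 barcodes, Cell Ranger 7.2.0 in the file headers) and the other 4 with unfiltered lists of all barcodes (version 9.0.1). The filtered pair held 21956506 and 21259837 UMIs and the other 4 held 45223393 to 62238012. Mitochondrial transcripts made up a median of 0.571% and 1.68% of a cell's UMIs in the filtered pair and 3.73% to 3.96% in the others. Pairs of libraries shared 0 to 18 kept barcodes. The unfiltered lists of ND replicate 3, MCDHFD replicate 1 and MCDHFD replicate 2 held nearly all of each other's kept barcodes. Of 4952 kept barcodes of ND replicate 3, 4952 stood in the list of MCDHFD replicate 1 and 4941 in that of MCDHFD replicate 2. ND replicate 1 was apart, with 2168 of its 6533 in the list of ND replicate 3 and 2426 in that of MCDHFD replicate 1. This further grouping within the unfiltered lists was not tested. Over the gated cells, counts differed by a chi-square per degree of freedom of 5.06 between ND replicates 1 and 3 and 4.88 between MCDHFD replicates 1 and 2, and by 32.9 to 37.5 across list forms. Diet and list form were therefore both terms in the main model for genes, and differences within each form are given beside shares.

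The gated cells carried marker genes of marginal zone B cells that the selection did not use. Of 14 such markers, only Myof, Marcks, Cd36, Tm6sf1, Fcrl5 and Ighm were followed by the number of gate markers detected. With 5 optional markers against 2, Myof, Marcks, Cd36 and Tm6sf1 were higher in all 6 libraries and Fcrl5 in 5. The exception for Fcrl5 was ND replicate 2 (53.3 CPM at 2 markers and 42.6 CPM at 5). Ighm, the IgM heavy chain, was uneven. It went from 4403 to 1832 CPM in ND replicate 1 and from 7188 to 2016 CPM in MCDHFD replicate 1. In ND replicates 2 and 3 and MCDHFD replicates 2 and 3 it was higher with 5 markers. Of the 1668 cells, 754 held 2 of the 5 optional markers, 445 held 3, 322 held 4 and 147 held all 5. Myof, a membrane-repair protein and marginal zone marker, stood at 41.2 to 67.8 CPM (UMI counts scaled to a total of 1000000) over the libraries in cells with 2 markers and at 156 to 276 CPM in cells with 5. Just outside the gate, cells that met every other condition but held 1 optional marker (1085 cells) had 5.90 to 21.4 CPM of Myof, and those with 0 markers (658 cells) had 6.32 to 25.8 CPM. Klf2, a transcription factor that keeps follicular B cells recirculating, ran the other way, from 352 to 607 CPM at 0 markers, through 211 to 390 CPM at 2, to 18.1 to 61.5 CPM at 5. Ighd, the IgD heavy chain, fell from 670 to 1103 CPM at 0 markers to 144 to 305 CPM at 5. Cells with 2 markers thus lay between the neighbours just outside and the cells with 5, and these levels are a description, since deeper cells also hold more detected markers.

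**Figure D1:**
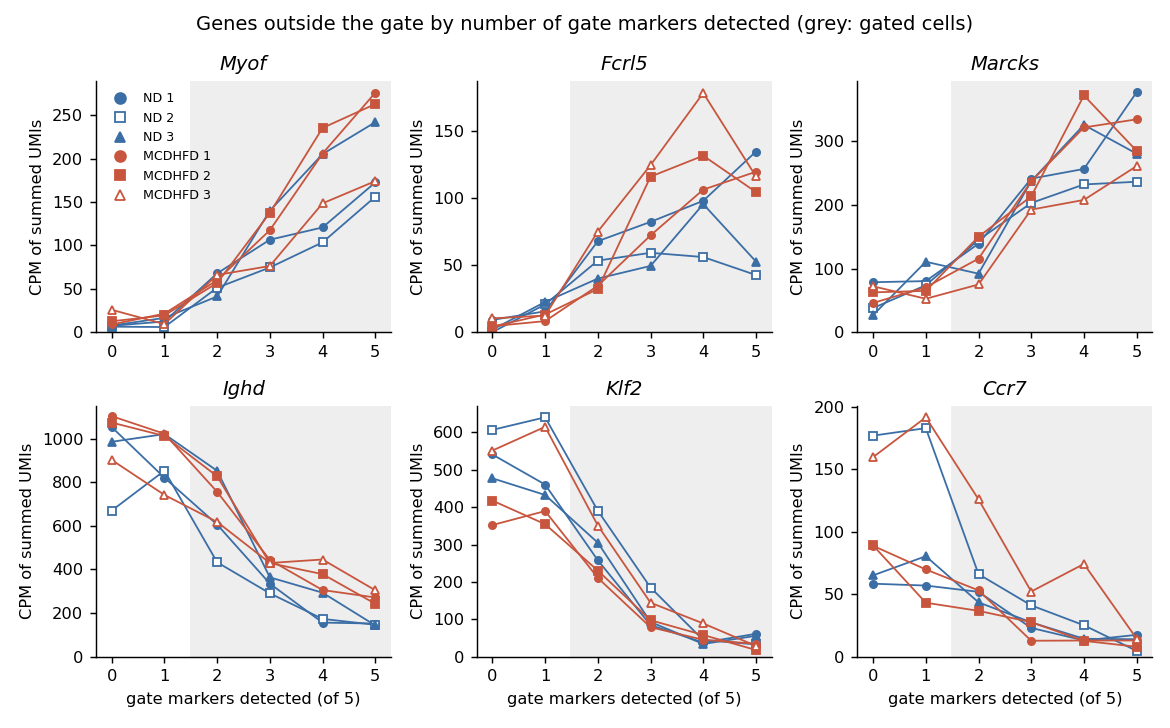
Levels of 6 genes outside the gate (CPM of summed UMIs, y axis, 1 panel per gene) in B cells with Cr2 and without Fcer2a or Bhlhe41, by the number of the 5 optional gate markers detected (x axis), with 1 line per library and the gated range in grey. From 0 to 5 markers Myof, Fcrl5 and Marcks rise and Ighd, Klf2 and Ccr7 fall in every library, although Fcrl5 falls between 2 and 5 markers in ND replicate 2; Myof goes from 6.32 to 25.8 CPM at 0 markers to 156 to 276 CPM at 5.

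The gate rested largely on Dtx1, an E3 ligase induced by Notch, and Mzb1, a chaperone of antibody-secreting cells. The pair alone admitted 562 cells, 33.7% of all gated cells. Dtx1 was detected in 36.3% to 50.8% of T cells in the same libraries (median 5687.5 to 8401 UMIs per cell) and in 26.8% to 42.6% of all B cells (median 3582 to 5878 UMIs), so its detection in a single cell is not by itself a sign of a marginal zone cell. Mzb1 was detected in 0.830% to 5.41% of T cells but in 60.3% to 72.9% of all B cells. Cd9, a tetraspanin, was in 16.8% to 24.2% of T cells and 7.66% to 12.5% of B cells, and Cd1d1, which presents lipids, in 9.60% to 12.3% and 9.79% to 12.9%. S1pr3, a sphingosine 1-phosphate receptor, was in 0% to 0.208% of T cells and 2.45% to 7.44% of B cells. A further 739 cells missed the gate by a single Fcer2a molecule, 121 by Bhlhe41, and 229 gated cells held a single Cr2 molecule. Of the 9071 Fcer2a-positive comparison cells, 2041 held Cr2 and at least 2 optional markers, so that Fcer2a alone kept them out of the gate. Gated cells were also deeper than Fcer2a-positive cells in every library, with medians of 8277.5, 7160 and 8463.5 UMIs in ND and 8733, 9085 and 5270 in MCDHFD against 5112.5, 4689, 5523, 5638.5, 5813 and 3632.5.

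Traces of other cell types were uneven between types and libraries. Summed T cell markers outside the gate lay at 16.7 to 31.6 CPM in gated cells, and dendritic and platelet markers at 0 to 16.1 CPM. Macrophage and monocyte markers summed to 168 to 527 CPM, erythroid markers to 25.7 to 119 CPM, NK cell markers to 0 to 60.3 CPM, B-1 cell markers to 29.2 to 50.5 CPM and transitional B cell markers to 89.4 to 162 CPM. Summed markers of neutrophils lay at 58.4 to 494 CPM in 5 libraries and at 10935 CPM in ND replicate 2. In Fcer2a-positive cells they lay at 174 to 2693 CPM, the highest in ND replicate 2. Plasma cell markers summed to 88.4 to 999 CPM in gated cells and to 67.7 to 265 CPM in Fcer2a-positive cells. In gated cells most of this was in few cells. In ND replicate 1, 1651 of 1725 Jchain molecules were in 6 cells, and in MCDHFD replicate 1, 3264 of 3287 were in 3 cells. Within libraries, the genes that varied most among gated cells beyond counting error, ranked by their lowest excess over the 6 libraries, were the replication gene Pclaf, the light chain segment Igkv1-117, the histone Hist1h1b, Stmn1, S100a6, a further light chain segment (Igkv1-110) and Top2a.

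Against Fcer2a-positive B cells of the same libraries, the gated cells differed in 3621 of 10299 genes tested outside the gate, 35.2% of them, with 1658 higher and 1963 lower (edgeR quasi-likelihood model with the library as a block, and p-values adjusted by Benjamini and Hochberg to a threshold of 0.05). The higher genes were 16.1% and the lower 19.1% of those tested. In cells paired by UMIs within each library (paired medians 8264.5 and 8259.5 in ND replicate 1, for example), 1826 of 9861 genes differed, 18.5% (9.48% higher and 9.04% lower), and in the 5 libraries left without ND replicate 1, 3005 did. Gated cells were above Fcer2a-positive cells in all 6 libraries in 10.2% of genes and below in 21.7%. Counts in UMI-matched cells therefore stand beside those over all cells below.

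Of 14 marginal zone markers outside the gate, 12 were higher in gated cells, with a median log2 difference of 1.62 over the list (1.15 in UMI-matched cells) beside −0.03 for all genes. Myof stood at 104, 86.3 and 134 CPM in gated cells of ND replicates 1 to 3 and at 142, 150 and 87.7 CPM in MCDHFD, against 16.4, 11.3, 19.0, 27.2, 25.2 and 9.33 CPM in Fcer2a-positive cells. The 2 sets did not overlap, and the difference was 2.73 on the log2 scale (SE 0.0751, adjusted p = 6.40e-22; 2.07 in UMI-matched cells). Ackr3, a scavenging chemokine receptor, differed by 4.04, from 1.89 to 3.44 CPM in Fcer2a-positive cells to 22.9 to 63.7 CPM in gated cells. Fcrl5, an inhibitory Fc receptor-like protein, differed by 2.36 and Cd36, a scavenger receptor for lipids, by 1.61. Ighm, the IgM heavy chain, did not pass (log2 0.37, adjusted p = 0.17), nor did Ebi3, an interleukin subunit (0.13, adjusted p = 0.515).

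Of 7 follicular markers outside the gate, 6 were lower in gated cells, with a median log2 difference of −1.12 (−0.79 in UMI-matched cells). Klf2 stood at 131, 195 and 145 CPM in ND and 108, 122 and 224 CPM in MCDHFD gated cells, and at 369 to 637 CPM in Fcer2a-positive cells. Its log2 difference was −1.63 (SE 0.052, adjusted p = 2.32e-20). Ighd differed by −1.12 (adjusted p = 0.000756) and the homing receptor Ccr7 by −1.25 on the log2 scale. Cxcr5, the receptor for the follicular chemokine, did not pass (0.04, adjusted p = 0.598). Both marker lists thus went the way of the label. The cells are called marginal zone B cells by the gate, with the reserve that cells with 2 markers had intermediate levels.

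**Figure D2:**
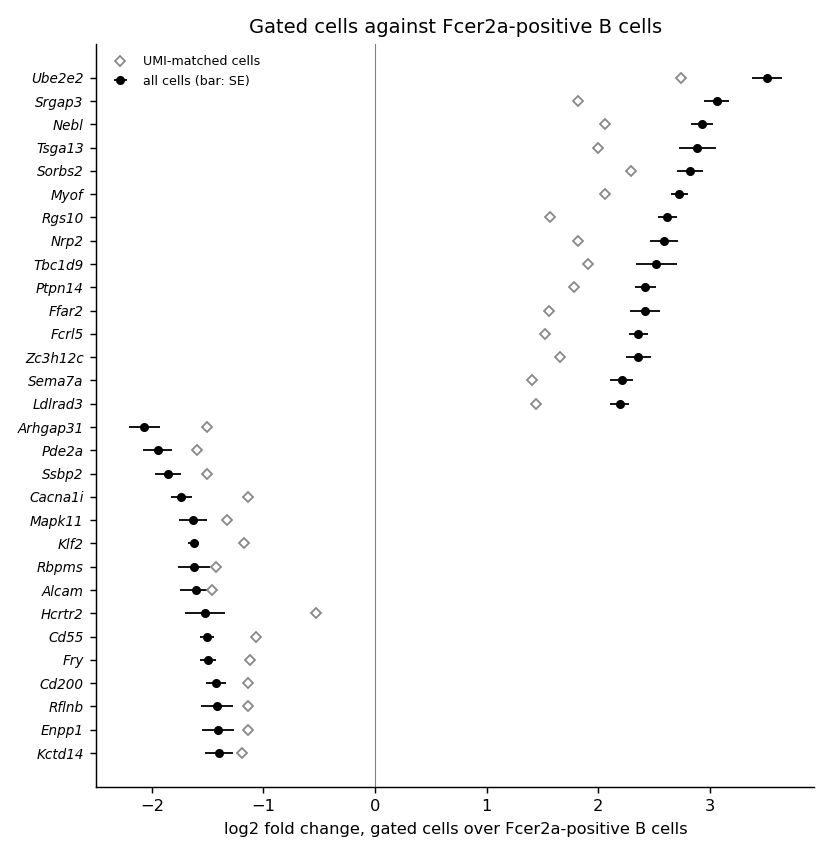
Log2 difference between gated and Fcer2a-positive B cells (x axis, points with SE, 6 libraries, library as a block) for the 15 genes in each direction with the largest difference, and the value in UMI-matched cells (diamonds). All 30 points keep their side in UMI-matched cells, where the differences lie nearer to 0; Hcrtr2, at −1.52, no longer passed there.

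Beyond the marker lists, the genes with the largest differences included several with cytoskeletal or signalling roles. Ube2e2, a ubiquitin-conjugating enzyme, stood at 18.1 to 64.8 CPM in gated cells and 1.68 to 5.39 CPM in Fcer2a-positive cells (log2 3.51). Srgap3, a GTPase-activating protein, differed by 3.06, Nebl, an actin-binding protein, by 2.93, Sorbs2, a cytoskeletal adaptor, by 2.83, and Rgs10, a regulator of G-protein signalling, by 2.62. The neuropilin Nrp2 (2.59), the short-chain fatty acid receptor Ffar2 (2.42), the phosphatase Ptpn14 (2.42) and the semaphorin Sema7a (2.21) were also higher. Each of these was higher in all 6 libraries and passed in UMI-matched cells, where Rgs10 differed by 1.57 and Sema7a by 1.41. Among genes lower in gated cells, Arhgap31, another GTPase-activating protein, differed by −2.07 and the phosphodiesterase Pde2a by −1.95. The transcriptional co-regulator Ssbp2 differed by −1.86, the calcium channel Cacna1i by −1.74, the adhesion molecule Alcam by −1.61, the complement regulator Cd55 by −1.51 and the inhibitory ligand Cd200 by −1.43.

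Counts of called genes here and in the next paragraph stand beside 16.1% of all genes higher and 19.1% lower. In UMI-matched cells these shares were 9.48% and 9.04%. The higher count of the Notch list below lies near the share of all genes. Of 22 genes of Toll-like receptors and their adaptors, 9 were higher and 2 lower. Tlr3, a receptor for double-stranded RNA, stood at 8.35 to 18.6 CPM in gated and 1.38 to 4.76 CPM in Fcer2a-positive cells (log2 2.32), and the lipopolysaccharide co-receptor Ly96 differed by 1.17. Tlr9, a receptor for unmethylated DNA, differed by 0.68 but not in UMI-matched cells (0.46, adjusted p = 0.127). Its level followed list form, at 3.78 to 6.70 CPM in gated cells of unfiltered libraries and 33.4 to 39.3 CPM in the filtered pair. Of 27 Notch pathway genes outside the gate, 5 were higher and 8 lower, and in UMI-matched cells 4 and 2; without MCDHFD replicate 1 or 2 the higher count was 3, and without ND replicate 1 or 3 the lower count was 5. The Notch target genes Hes5 and Hes1 were higher by 1.84 and 0.92 on the log2 scale, while Lfng, a glycosyltransferase that modifies Notch receptors, differed by −1.32. S1pr1, the receptor that draws B cells towards blood sphingosine 1-phosphate, was higher by 0.73, at 184 to 257 CPM against 114 to 167 CPM.

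Genes of protein folding and secretion in the endoplasmic reticulum were higher in 17 and lower in 2 of 30 (8 and 1 in UMI-matched cells). Pdia4, a disulfide isomerase, differed by 1.28, at 186 to 322 CPM against 80.0 to 139 CPM. Class II antigen presentation was lower in 11 and higher in 2 of 17 genes (7 and 2 in UMI-matched cells), with Cd74, the class II chaperone, at −0.27 and H2-Aa at −0.37. B lineage transcription factors were lower in 18 and higher in 5 of 27 (13 and 2 in UMI-matched cells); without MCDHFD replicate 2 the higher count was 3. Bach2, a repressor of plasma cell differentiation, differed by −1.38. Respiratory chain genes were higher in 24 of 36 and cell cycle genes in 7 of 19, against 7 and 1 in UMI-matched cells; without MCDHFD replicate 1, 17 cell cycle genes passed. Receptors for chemokines, sphingosine 1-phosphate and integrins were lower in 19 and higher in 7 of 32 (16 and 5 in UMI-matched cells). BAFF, CD40 and NF-kB survival genes were lower in 12 and higher in 2 of 29 (8 and 0), and immediate early genes lower in 11 and higher in 3 of 18 (10 and 2).

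The share of gated cells depended on what it was taken of. Of all kept cells, they made up 5.20%, 4.98% and 5.29% in ND and 5.89%, 5.97% and 3.46% in MCDHFD, which is 5.16% ± 0.160 (SD, n = 3) against 5.11% ± 1.43, and the diets overlapped (two-sided exact permutation test over libraries, p = 1). Within unfiltered lists MCDHFD was 0.682 percentage points above ND, and within the filtered pair 1.52 points below. Of B cells (15342 cells, with Cd79a and no T cell or myeloid transcripts), gated cells made up 8.58%, 9.09% and 8.84% in ND and 14.6%, 14.6% and 9.63% in MCDHFD. The means were 8.83% ± 0.253 and 12.9% ± 2.86, the diets did not overlap, and the exact p was 0.1, the smallest that 3 against 3 allows. The difference was 5.88 points within unfiltered lists and 0.543 points in the filtered pair, and 5.76 points without MCDHFD replicate 3. B cells themselves made up 60.7%, 54.8% and 59.9% of kept cells in ND and 40.5%, 40.8% and 35.9% in MCDHFD (exact permutation p = 0.1).

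Levels of Dtx1 and Mzb1 differed by diet in Fcer2a-positive cells, where they were no part of the selection, in opposite directions. There Dtx1 stood at 68.0, 102 and 72.2 CPM in ND and 121, 122 and 121 CPM in MCDHFD, a log2 difference of 0.57 (SE 0.101, edgeR adjusted p = 0.00454). Mzb1 stood at 332, 363 and 252 CPM in ND and 220, 214 and 312 CPM in MCDHFD, which overlap (−0.42, SE 0.114, adjusted p = 0.0489). Cr2, required of every gated cell, stood there at 472, 390 and 558 CPM in ND and 796, 742 and 392 CPM in MCDHFD. It did not pass (0.34, SE 0.113, edgeR adjusted p = 0.106), nor did Cd1d1, S1pr3 or Cd9. With Dtx1 left out of the gate, gated cells made up 5.73%, 6.19% and 5.70% of B cells in ND and 9.28%, 8.77% and 5.21% in MCDHFD, which overlap (exact permutation p = 0.4). The diets also overlapped when 3 of 5 markers were required (4.57%, 5.07% and 4.96% against 8.53%, 7.95% and 4.26%, exact p = 0.4), without Mzb1 (exact p = 0.4), and when 1 Fcer2a molecule was allowed (exact p = 0.2). After each cell was thinned to 2000 UMIs, the shares of B cells were 3.63%, 4.95% and 3.54% in ND and 5.67%, 5.34% and 5.29% in MCDHFD (exact permutation p = 0.1). MCDHFD replicates 1 and 2 were above every ND library in all of these versions, and MCDHFD replicate 3 lay below every ND library in those without Dtx1, without Mzb1 and with 3 of 5 markers. Thinned shares depended on the depth and the markers. At 3000 UMIs the difference was 3.99 points without overlap (exact p = 0.1), and at 1000 UMIs 0.209 points with overlap (exact p = 0.3; −0.112 in the filtered pair). At 2000 UMIs the diets overlapped without Dtx1 (0.344 points, exact p = 0.5), without Mzb1 (0.373, exact p = 0.5), without Cd1d1 (1.15, exact p = 0.3) and without Cd9 (1.06, exact p = 0.2), but not without S1pr3 (1.40, exact p = 0.1).

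**Figure D3:**
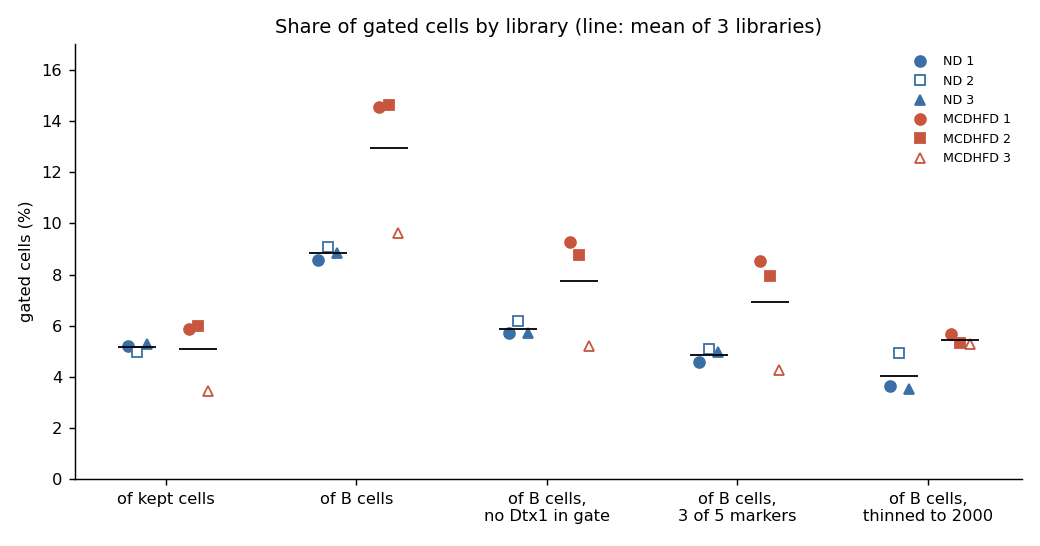
Gated cells as a percentage of kept cells or of B cells (y axis) by gate version (x axis) and diet. Points are libraries, with open symbols for the 2 libraries with filtered lists, and lines are means of 3 libraries. ND libraries lie between 8.58% and 9.09% of B cells, MCDHFD libraries at 9.63%, 14.6% and 14.6%; without Dtx1 in the gate the diets overlap.

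Between the diets, gated cells differed in 650 of 10028 genes (6.48%), 182 higher (1.81%) and 468 lower (4.67%) with MCDHFD. The edgeR model held both terms, and the threshold was an adjusted p under 0.05. Gate genes with enough counts to be tested were part of these numbers and are not named. DESeq2 with the same terms called 200 (1.99%), 58 higher (0.578%) and 142 lower (1.42%). The 4 unfiltered libraries alone gave 757 of 10252 (7.38%), 218 higher (2.13%) and 539 lower (5.26%), and 511 of the 650 genes were among them. When 3 of 5 markers were required, 282 of 9255 passed (3.05%), 83 higher (0.897%) and 199 lower (2.15%). In a model of diet alone none passed in edgeR; 499 genes were under 0.05 unadjusted, the lowest adjusted p was 0.127, and DESeq2 called 25. For the leading genes the log2 difference within each list form is therefore given as well. Without MCDHFD replicate 1, MCDHFD replicate 2 or ND replicate 1, 308, 244 and 255 genes passed. With ND replicate 2 or MCDHFD replicate 3 left out, the other filtered library stands alone in its list form. It then adds nothing to the diet term. Both of these fits therefore repeat the comparison of the 4 unfiltered libraries and are not separate checks. CPM of the diets did not overlap in 11.3% of genes, 6.31% with MCDHFD higher and 5.04% with MCDHFD lower. Verbs such as rose and fell below refer to the model with list form, and log2 values are positive where MCDHFD was higher. In bulk sums of this kind, fewer cells in a state and less RNA per cell cannot be told apart.

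**Figure D4:**
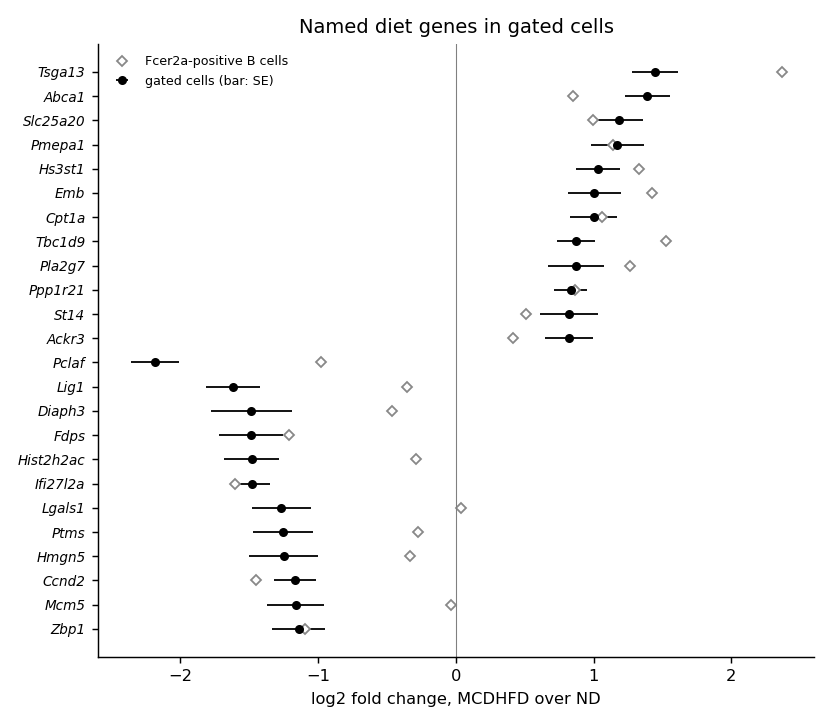
Log2 difference between MCDHFD and ND (x axis, points with SE, 3 libraries per diet, model with list form) in gated cells for the 12 genes in each direction with the largest difference, and the same quantity in Fcer2a-positive B cells (diamonds). Values in gated cells run from 1.45 (Tsga13) to −2.19 (Pclaf); Mcm5 and Lgals1 lie near 0 in Fcer2a-positive cells and Lig1 at −0.36, while Ifi27l2a, Fdps, Ccnd2 and Zbp1 lie at similar values in both.

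Promoters of 3 genes that fell are shown with a motif known from cell cycle, interferon and sterol genes; Isg15 and Hmgcs1 belong to the gene lists below, while Pclaf, a replication gene named by size, is outside the cell cycle list. They run from 200 bases before to 20 after the start in RefSeq (GRCm38.p6), with the motif in capitals. They are Pclaf (chr9:65890123-65890342, plus strand) with an E2F motif of cell cycle genes, Isg15 (chr4:156200799-156201018, minus strand) with overlapping interferon-stimulated response elements, and Hmgcs1 (chr13:119690151-119690370, plus strand) with a sterol regulatory element.
Pclaf: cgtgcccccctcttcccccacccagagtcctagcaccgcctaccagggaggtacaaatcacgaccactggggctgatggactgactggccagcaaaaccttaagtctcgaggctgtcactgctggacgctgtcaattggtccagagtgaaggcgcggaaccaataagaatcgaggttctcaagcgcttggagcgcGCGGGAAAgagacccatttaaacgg
Isg15: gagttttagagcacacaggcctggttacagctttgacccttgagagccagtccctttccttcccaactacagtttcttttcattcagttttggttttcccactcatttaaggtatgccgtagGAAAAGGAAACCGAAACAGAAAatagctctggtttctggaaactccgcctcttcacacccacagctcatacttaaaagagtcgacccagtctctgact
Hmgcs1: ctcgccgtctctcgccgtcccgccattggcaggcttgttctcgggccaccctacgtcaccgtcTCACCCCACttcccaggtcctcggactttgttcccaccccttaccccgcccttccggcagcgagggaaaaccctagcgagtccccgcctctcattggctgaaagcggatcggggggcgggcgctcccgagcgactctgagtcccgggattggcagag
The letters GCGGGAAA begin 5 bases before the Pclaf start, and on either strand they occur in 277 of 32851 promoters of this length, 0.843%. For Isg15 the letters searched were a pair of GAAA with 2 bases of any kind between them; they matched 3 overlapping times from 78 bases before the start. The pair occurs in 2.50% of promoters, and in 14 of the 29 interferon list genes with a promoter. TCACCCCAC begins 137 bases before the Hmgcs1 start and occurs in 0.420% of promoters and in 1 of 22 of the sterol list, Hmgcs1 itself. The E2F letters occur in 0 of the 17 cell cycle list genes with a promoter. A match is a description of the letters, not of a bound site.

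Genes of DNA replication and division fell in gated cells on MCDHFD. Of 19 cell cycle genes tested, 13 fell and none rose, with a median log2 difference of −1.24 beside −0.00092 for all genes. Pclaf, a clamp-associated replication factor outside that list, stood at 87.2, 128 and 60.7 CPM in ND and 13.7, 17.9 and 37.6 CPM in MCDHFD. Every MCDHFD library was below every ND library, and the log2 difference was −2.19 (SE 0.174, edgeR adjusted p = 6.43e-08; −2.23 within unfiltered lists, −1.77 in the filtered pair). Lig1, the replicative DNA ligase and also outside it, fell by 1.62 on the log2 scale (35.9, 44.2 and 28.4 against 8.94, 13.3 and 13.9 CPM). The replicative helicase subunit Mcm5 fell by 1.16, the ribonucleotide reductase subunit Rrm2 by 2.13, the sliding clamp Pcna by 0.75 and the mitotic regulator Birc5 by 1.81. Mki67, a proliferation marker, stood at 63.0, 99.6 and 26.4 against 5.03, 7.43 and 11.1 CPM but did not pass (adjusted p = 0.059). In Fcer2a-positive cells 5 of 20 cell cycle genes fell, with a median of −0.67, and the difference between the populations was called for 5 of 19. Mcm5, for instance, stood at 13.8 to 20.3 CPM in ND and 13.5 to 19.3 CPM in MCDHFD there.

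Few cells carried these transcripts. Counting as cycling a cell with at least 2 molecules over 9 genes (Mki67, Top2a, Birc5, Ccna2, Ccnb2, Ube2c, Rrm2, Pclaf and Cdk1), 7.35%, 6.75% and 4.96% of gated cells were cycling in ND and 2.06%, 1.53% and 1.64% in MCDHFD. The means were 6.35% ± 1.24 and 1.74% ± 0.278 (n = 3), without overlap (exact permutation p = 0.1, the smallest possible). In MCDHFD replicate 3 this was 2 of 122 cells (95% Wilson interval 0.451% to 5.78%, counting error only). Cells thinned to 2000 UMIs gave 3.24%, 5.03% and 1.92% against 0.257%, 0.765% and 1.68%, from 11, 8 and 5 cells against 1, 3 and 2 (exact permutation p = 0.1). Among Fcer2a-positive cells the unthinned shares were 1.37%, 1.95% and 1.11% against 0.933%, 1.18% and 1.01% (exact p = 0.2). With cycling cells removed, 0 of the 10 list genes still tested passed (edgeR, 2 under 0.05 unadjusted, DESeq2 not run on these cells). Lig1 differed by −0.52 (adjusted p = 0.468), and 306 of 9685 genes were called in all (3.16%, with 1.02% higher and 2.14% lower). Cells were removed by transcripts of the 9 genes above, Rrm2 and Birc5 of the list among them. The loss of list calls was thus partly fixed by the definition, and no conclusion is drawn from it. Markers of germinal centre B cells moved with this group: 5 such genes, Mki67 among them, summed to 75.7 to 170 CPM in ND and 38.0 to 62.6 CPM in MCDHFD gated cells. Bcl6, a germinal centre transcription factor, did not pass (−0.18, adjusted p = 0.646). Their part in the result was not tested.

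**Figure D5:**
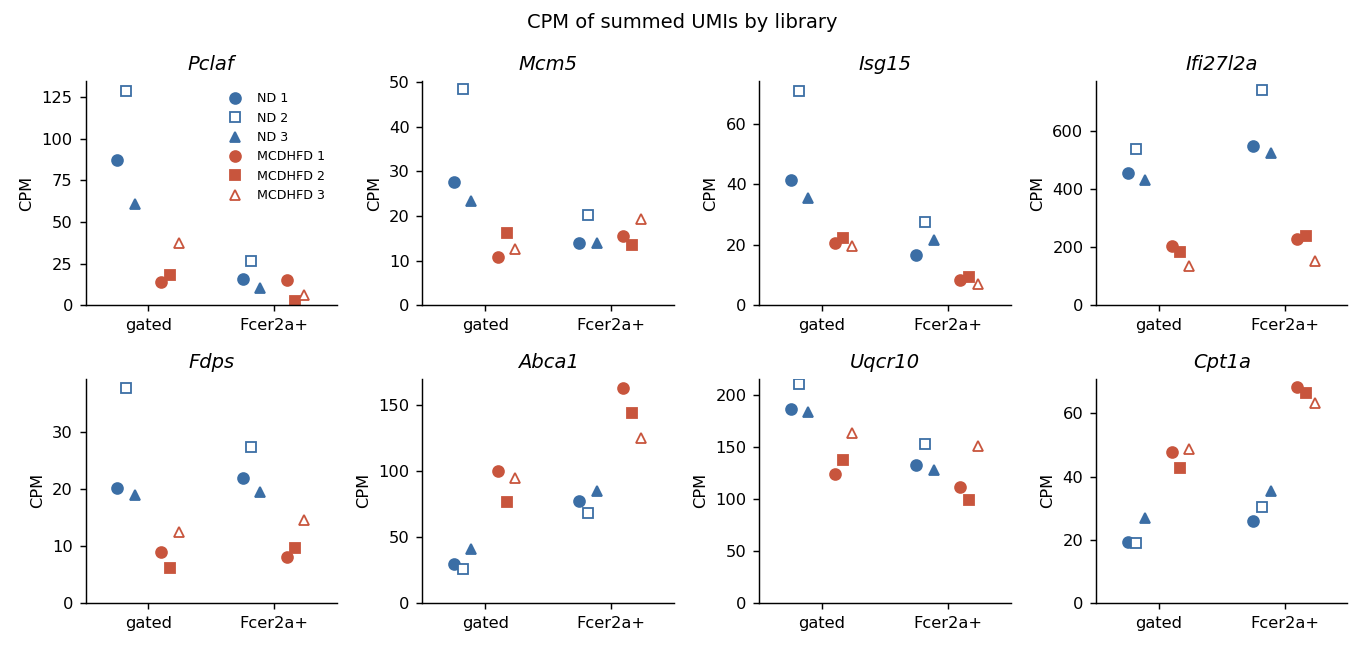
CPM of 8 genes by library (y axis, 1 panel per gene) in gated and in Fcer2a-positive B cells of both diets, with open symbols for the 2 libraries with filtered lists. Pclaf and Mcm5 separate the diets in gated cells and overlap in Fcer2a-positive cells, Isg15, Ifi27l2a, Fdps and Abca1 separate them in both populations, and Cpt1a is 18.9 to 26.8 CPM in ND and 42.8 to 48.7 CPM in MCDHFD gated cells.

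Interferon-induced genes fell. Of 35 tested, 8 fell and none rose (median log2 −0.45), among them Ifit1, Isg15, Irf9, Ifi27l2a, Rtp4, Bst2 and Zbp1. Ifi27l2a stood at 455, 536 and 432 CPM in ND and 204, 183 and 135 CPM in MCDHFD, without overlap (log2 −1.48, SE 0.13, edgeR adjusted p = 7.38e-07; −1.27 within unfiltered lists, −2.01 in the filtered pair). Isg15, a ubiquitin-like protein, stood at 41.3, 70.8 and 35.5 against 20.7, 22.3 and 19.5 CPM (−1.10, adjusted p = 0.00017). The nucleic acid sensor Zbp1 fell by 1.14 and the viral tether Bst2 by 0.90. Without MCDHFD replicate 2 the count was 5. Fcer2a-positive cells showed a like pattern, with 18 of 37 lower (over all genes there, 1.78% higher and 3.1% lower); Isg15 differed there by −1.34, and no interaction was called for Isg15 (0.24, adjusted p = 0.793).

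Genes of sterol synthesis fell while the cholesterol exporters Abca1 and Abcg1 rose. Of 27 genes of sterol and fatty acid synthesis, 8 fell and 1 rose (median −0.35). Hmgcs1, Mvk, Idi1, Fdps, Cyp51 and Msmo1 were among those that fell, and Scd1, a fatty acid desaturase, rose. Fdps, the farnesyl diphosphate synthase, stood at 20.2, 37.9 and 18.9 CPM in ND and 8.94, 6.15 and 12.5 CPM in MCDHFD (log2 −1.49, SE 0.23, adjusted p = 0.000138; −1.38 within unfiltered lists, −1.56 in the filtered pair). Hmgcs1, the enzyme that commits acetyl units to the pathway, stood at 15.7, 21.7 and 12.2 against 7.82, 9.48 and 4.17 CPM (−0.997, adjusted p = 0.023), and its call was lost with 1 library left out (adjusted p up to 0.18). The list's count was 4 without MCDHFD replicate 1, 3 without MCDHFD replicate 2 5 without ND replicate 3, and 3 in DESeq2 or with 3 of 5 markers required. The exporter Abca1 rose from 29.3, 25.9 and 41.0 CPM to 100, 76.6 and 94.6 CPM (1.39, SE 0.163, adjusted p = 3.39e-05; 1.25 within unfiltered lists, 1.81 in the filtered pair), and Abcg1 from 39.1, 31.6 and 42.6 CPM to 78.5, 56.4 and 69.6 CPM (0.75, adjusted p = 0.00326; 0.0517 without MCDHFD replicate 1). Abca1 rose less in Fcer2a-positive cells (0.85), but the difference was not called (adjusted p = 0.0619).

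Among the genes named by size, Cpt1a, the carnitine acyltransferase of the outer mitochondrial membrane, and Slc25a20, the carnitine carrier of the inner membrane, rose. Cpt1a stood at 19.2, 18.9 and 26.8 CPM in ND and 47.8, 42.8 and 48.7 CPM in MCDHFD (log2 1.00, adjusted p = 0.000327), and Slc25a20 at 13.9, 17.5 and 13.8 against 32.1, 32.8 and 43.1 CPM (1.18, adjusted p = 0.00012). Neither overlapped, and both rose by similar sizes in Fcer2a-positive cells (1.06 and 1.00). Of 18 lipid uptake, storage and efflux genes, 2 rose (Abca1 and Abcg1) and 4 fell (Fabp5, Npc2 and Apoe among them); the lower count was 1 without MCDHFD replicate 1 or 2, and 2 without ND replicate 1 or 3.

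Nuclear genes of the respiratory chain fell by small amounts. Of 36, 26 fell and none rose, with a median of −0.41. Uqcr10, a subunit of complex III, stood at 186, 210 and 183 CPM in ND and 123, 137 and 163 CPM in MCDHFD (log2 −0.53, adjusted p = 0.00118), and Atp5k, of the ATP synthase, at 166, 181 and 166 against 112, 118 and 120 CPM (−0.61). The number called followed the libraries used: 14 without MCDHFD replicate 1, 9 without MCDHFD replicate 2 and 11 without ND replicate 1, with medians of −0.32 to −0.46 over all leave-outs. In Fcer2a-positive cells 4 of 36 passed (median −0.26). The median mitochondrial share of UMIs in gated cells was 4.86%, 0.784% and 4.45% in ND and 4.53%, 4.48% and 2.12% in MCDHFD, which overlap. Of 9 heat shock chaperones 6 fell (median −0.63), among them Hspe1 from 499, 448 and 503 CPM to 300, 374 and 280 CPM (−0.66); 3 fell without ND replicate 3.

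Counts of called genes of position and identity stand here beside 1.81% of all genes higher and 4.67% lower. Of 32 genes of chemokine, sphingosine 1-phosphate and integrin receptors and their regulators, 2 rose, Ackr3 among them, and Rgs10 fell. Ackr3 rose by 0.82 from 32.4, 34.4 and 22.9 CPM to 63.7, 48.9 and 45.9 CPM, but missed without MCDHFD replicate 1 (adjusted p = 0.053) or ND replicate 3 (0.0681). Rgs10 fell from 101, 109 and 80.4 CPM to 55.3, 63.3 and 48.7 CPM (−0.79). Of 14 marginal zone markers Ackr3 rose and Plac8, a leukocyte protein of uncertain function, fell by 0.66. Of 7 follicular markers 2 rose, among them the chromatin organiser Satb1 (by 0.42, lost without MCDHFD replicate 2 or ND replicate 1). The summed level of the follicular list in gated cells was 925, 870 and 1125 CPM in ND and 1197, 1305 and 1297 CPM in MCDHFD (exact permutation p = 0.1); the part of neighbouring follicular cells in the gate in these values was not tested.

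Among other genes named by size, Tsga13, a gene also higher in gated than in Fcer2a-positive cells, rose from 19.8, 22.4 and 21.3 CPM to 61.5, 68.9 and 40.4 CPM (1.45, adjusted p = 7.68e-07) and by 2.37 in Fcer2a-positive cells. Pmepa1, an inhibitor of TGF-beta signalling, rose by 1.17, the heparan sulfate sulfotransferase Hs3st1 by 1.03, the adhesion molecule Emb by 1.01, Tbc1d9 by 0.87, the lipoprotein-associated phospholipase Pla2g7 by 0.87, Ppp1r21 by 0.84 and the protease St14 by 0.82. The calls of Emb, Pla2g7 and St14 were lost with 1 library left out: Emb without ND replicate 1 (adjusted p = 0.0501), and Pla2g7 and St14 without MCDHFD replicate 1 (0.0884 and 0.15) or ND replicate 3 (0.0657 and 0.0848). The G1 cyclin Ccnd2 fell from 65.2, 68.7 and 88.3 CPM to 39.7, 30.0 and 34.8 CPM (−1.17) and by a similar size in Fcer2a-positive cells (−1.45). Lgals1, a galectin, fell by 1.27 in gated cells and differed by 0.03 in Fcer2a-positive cells, a called difference (adjusted p = 0.00791). Diaph3, Hist2h2ac, Ptms and Hmgn5 fell by 1.25 to 1.49. Without ND replicate 1, Diaph3 (adjusted p = 0.0765) and Hmgn5 (0.115) missed. Diaph3 also missed without MCDHFD replicate 3 or ND replicate 2, which are the same comparison.

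Signalling and metabolic lists differed in their counts, to be read beside 1.81% of all genes higher and 4.67% lower. No gene passed in edgeR among 26 Notch genes (8 under 0.05 unadjusted, 1 called by DESeq2), 21 Toll-like receptor genes (2 unadjusted, 0 by DESeq2) or 17 class II presentation genes (0 unadjusted, 0 by DESeq2). Of 29 B cell receptor genes the inhibitory receptor Cd72 fell (−0.42; lost without any 1 of the libraries other than ND replicate 3, adjusted p up to 0.116), and of 28 survival genes the ubiquitin ligase Birc3 rose (0.58). Of 27 B lineage transcription factors Pou2af1, Satb1, Irf8 and Ets1 rose by 0.35 to 0.53; of these 2 passed without MCDHFD replicate 1 and 1 without MCDHFD replicate 2 or ND replicate 1. Of 23 methionine, folate and serine genes 3 fell, among them Phgdh, the first enzyme of serine synthesis, and Tyms, the thymidylate synthase, and these calls were lost without MCDHFD replicate 1 or ND replicate 1; Tyms was kept only without MCDHFD replicate 2. Of 17 choline and phosphatidylcholine genes Cept1 rose by 0.32, a call lost without MCDHFD replicate 1 or 2 or ND replicate 1 or 3 (adjusted p up to 0.222). Of 30 genes of protein folding and secretion 4 fell, 0 of them without MCDHFD replicate 2.

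The diet difference itself differed between gated and Fcer2a-positive cells in 46 of 10299 genes (0.447%; edgeR interaction of gate and diet), 20 with a higher (0.194%) and 26 with a lower value (0.252%) in gated cells. Besides Mcm5, Lig1 (adjusted p = 0.00366), Pcna (0.00277), Tuba1b (0.00189) and Mcm6 (0.0172) of the replication and spindle genes, they included Hist1h1b, a linker histone. It stood at 103, 183 and 58.3 CPM in ND and 25.7, 8.71 and 32.0 CPM in MCDHFD gated cells, and at 19.0 to 32.0 against 8.12 to 32.1 CPM in Fcer2a-positive cells, a difference of −1.94 between the log2 values. The count was 92 without ND replicate 1, 67 without ND replicate 3, and 28 without MCDHFD replicate 1, MCDHFD replicate 3 or ND replicate 2. Leaving out MCDHFD replicate 3 or ND replicate 2 is again the same comparison.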

How the data were processed

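Splenocytes of 3 ND and 3 MCDHFD libraries were profiled by droplet-based 3′ sequencing. The deposited values are raw counts of UMIs for 32285 genes per barcode, per the file headers, and all were whole numbers. The submitters' processing notes name the build mm10 and the tools Cell Ranger 9.1.0 and Seurat 4.3.0; the headers name other Cell Ranger versions.

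Kept cells are barcodes with 1000 UMIs and 400 genes or more, of which mitochondrial UMIs made up no more than 10%. Doublets were not removed; Scrublet predicted 75, 0 and 58 in ND and 243, 200 and 0 in MCDHFD, of which 16 were gated cells. The UMIs of gated cells and of Fcer2a-positive B cells were summed per library and tested with edgeR 4.0.16 in R 4.3.3 (quasi-likelihood, TMM, low-count filter, Benjamini-Hochberg); DESeq2 1.42.0 was an alternative. Shares were compared with two-sided exact permutation tests over libraries. UMI-matched cells were paired within 0.2 log2 units. CPM is scaled to the UMIs of the summed cells.

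The members, the 33 gene lists, the tests and the model with list form were chosen with earlier results of these data known. Named are the 12 genes in each direction with the largest diet difference among those called, with diets that did not overlap and a mean log2 CPM of 4 or more, the 15 in each direction against Fcer2a-positive cells that moved one way in all 6 libraries, the 5 interactions with the smallest p, and up to 4 called genes per list; other list members were chosen after their values were seen. Gate, immunoglobulin and unnamed genes were left out. On simulated data with 200 genes changed by a log2 of 1, the diet test recovered 81% of them among 10068 genes, the comparison with Fcer2a-positive cells 96.5% and the interaction 71%. The simulated counts had a common dispersion for all genes, and no difference between list forms or between libraries beyond their sizes. The real libraries differ in both, so these rates do not give the share of real changes that the tests would find. Same-numbered libraries of the diets correlated at 0.38, −0.55 and −0.52 in their deviations from the diet means. List form was not removed from these deviations, and ND replicate 2 and MCDHFD replicate 3, both filtered, correlated at 0.64. Pairs numbered 2 and 3 each mix the list forms, so these values cannot decide whether replicate numbers pair libraries. Promoters came from RefSeq. Alternatives were other limits on cells, other gates, normalization, no low-count filter, and each library left out. In models with list form, leaving out either filtered library repeats the comparison of the unfiltered libraries. Results of some genes are not reported here.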

Additional observations from a re-analysis of the deposited data

Results flagged for a closer look

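The diet difference differed between gated and Fcer2a-positive B cells in 46 genes, by a test of the gate-by-diet term in a model that also held a term for gate by list form, and the 5 with the smallest p are given here. Without the list form term 33 genes were called, 30 of the 46 among them, and Hist1h1b (edgeR adjusted p = 0.236) and Wfdc21 (1.00) were lost. Without cells over 3 times the median UMIs 43 were called, 16 of the 46 among them, and Hist1h1b was lost (−0.58, adjusted p = 0.802). For Nedd4, a ubiquitin ligase, the diet difference was 0.93 higher on the log2 scale in gated cells: 132, 125 and 118 CPM in ND and 123, 111 and 33.4 CPM in MCDHFD gated cells, against 44.3, 41.9 and 45.1 and 22.3, 22.0 and 6.22 CPM in Fcer2a-positive cells. In both populations MCDHFD replicate 3 was the lowest library, and in gated cells the diet difference did not pass. For Hist1h1b, a linker histone, the populations differed by −1.94 (−2.38 in gated cells against −0.40), and it stood at 1.11 with cycling cells removed.

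Serpinb1a, a protease inhibitor, differed by 0.63 between populations (0.37 in gated cells, −0.23 in Fcer2a-positive cells), and Hdac9, a histone deacetylase, by 0.51 (−0.38 against −0.95). Wfdc21, a secreted protein of neutrophils and epithelia, differed by 2.56, at 6.61, 158 and 1.18 CPM in ND and 2.79, 6.92 and 1.39 CPM in MCDHFD gated cells. Its high value was in ND replicate 2, the library in which summed neutrophil markers reached 10935 CPM in gated cells, and the call was lost without MCDHFD replicate 2 (edgeR adjusted p = 0.104), with doublets removed, and with at least 1 of Cd1d1, S1pr3 and Cd9 required. The part of neutrophil transcripts in it was not tested.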

How the results depend on the processing

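The count of genes that differed by diet in gated cells, 650, was 0 with diet alone in edgeR, 25 with diet alone in DESeq2, 200 in DESeq2 with list form, 380 with at least 1 of Cd1d1, S1pr3 and Cd9, 282 with at least 3 of 5 markers, 306 with cycling cells removed, 322 without cells over 3 times the median UMIs, and 244 to 771 with 1 library left out. With the replicate number as a block it was 0 with diet alone (220 genes under 0.05 unadjusted) and 674 with list form. The fit with block and list form holds nearly as many terms as there are libraries, so its count is no check on the 650. The 3621 genes against Fcer2a-positive cells became 1826 in UMI-matched cells and 669 without the library as a block, and ranged from 3005 to 3616 with 1 library left out; Mcm3 turned from 0.62 to −0.14 without cells over 3 times the median UMIs. The 46 interactions became 27 in the 4 unfiltered libraries, 11 in DESeq2, 11 with at least 1 of Cd1d1, S1pr3 and Cd9, 29 with at least 3 of 5 markers, 20 with cycling cells removed, 191 without the low-count filter, and 28 to 92 with 1 library left out; Hist1h1b turned to 1.11 with cycling cells removed. The difference in the share of kept cells, −0.0525 points, turned to 0.0309 without cells over 3 times the median UMIs, 0.124 at 2000 UMIs and 800 genes, 0.156 at a 5% mitochondrial limit, 0.163 without Cd1d1, 0.682 in the 4 unfiltered libraries, and −0.485 to 0.771 with 1 library left out. The difference in the share of B cells was 1.88 to 6.06 points in the versions without thinning and 0.209 to 3.99 points in the thinned ones. The cause of these changes was not tested. The added alternatives (DESeq2 with diet alone, cycling cells removed, at least 1 of Cd1d1, S1pr3 and Cd9, and the interaction in 4 libraries) were chosen after the data were seen. MCDHFD replicate 3, with 122 gated cells and a median of 5270 UMIs, limits every value in it.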

Other observations

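Gene groups not described above moved as follows, with diet counts to be read beside 1.81% of all genes higher and 4.67% lower. Between the diets, of 10 genes of the regulatory and interleukin 10 programme Il12a rose, from 3.78, 9.82 and 7.49 CPM to 10.9, 10.8 and 40.4 CPM (log2 1.26, edgeR adjusted p = 0.00846), and the ectonucleotidase Entpd1 rose by 0.42 (adjusted p = 0.0491). Il12a was lost without ND replicate 1 and without MCDHFD replicate 3 or ND replicate 2 (the same comparison). Entpd1 was lost with any library left out. Of 9 glucocorticoid-responsive genes Ddit4 rose by 0.69 (lost without MCDHFD replicate 2) and Txnip by 0.45 (lost without MCDHFD replicate 2 or ND replicate 3); Fkbp5, a steroid receptor co-chaperone, stood at 38.4, 20.3 and 45.7 CPM in ND and 133, 256 and 73.8 CPM in MCDHFD, without overlap, but did not pass in edgeR (2.10, adjusted p = 0.0851) and passed in DESeq2 (adjusted p = 6.37e-14). Of 18 immediate early genes Jund fell by 0.59. Of 11 immunoglobulin constant and J chain genes none passed in edgeR (2 under 0.05 unadjusted, 0 by DESeq2).

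Against Fcer2a-positive cells, methionine, folate and serine genes were higher in 11 and lower in 3 of 23 (5 and 1 in UMI-matched cells), and choline and phosphatidylcholine genes in 6 and 2 of 17 (5 and 0). Glucocorticoid-responsive genes were lower in 6 and higher in 3 of 11 (2 and 2), and interferon genes lower in 6 and higher in 2 of 36 (3 and 2). Sterol and fatty acid synthesis genes were lower in 6 and higher in 3 of 29 (4 and 3), and the lower count was 3 without ND replicate 1. Over all genes, 16.1% were higher and 19.1% lower (9.48% and 9.04% in UMI-matched cells). The lower counts of the interferon and sterol lists over all cells lie near that share.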
